A study of Mus musculus with 12 samples.

Results

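NF-kappaB is a family of transcription factors made of 5 subunits, RelA, c-Rel, RelB and the products of Nfkb1 and Nfkb2, which act as pairs. In resting cells the pairs are held back in the cytoplasm by inhibitors of the IkappaB type. An inflammatory signal leads to the loss of the inhibitor, the pairs enter the nucleus, and among the genes they switch on are their own brakes, so that the response limits itself. In macrophages the pathway is best known for driving cytokines such as TNF. The 10 genes described here are the 5 subunits (Rela, Rel, Relb, Nfkb1 and Nfkb2) and 5 feedback and target genes: Nfkbia, Nfkbiz and Tnfaip3, which regulate the pathway, and Tnf and Ptgs2, which carry its output. They were chosen by gene symbol, all 10 were found among the 37620 gene identifiers of the deposited count table, and all 10 were among the 14616 genes with enough counts to be tested.

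The cells were primary macrophages grown from the bone marrow of C57BL/6 mice and taken at day 7 of culture. They were kept in hypoxia (1% oxygen) or normoxia, with 25 mM of either sodium lactate or, as the salt control, NaCl, and each of the 4 combinations has 3 libraries: hypoxia-lactate, hypoxia-NaCl, normoxia-lactate and normoxia-NaCl. The labels name no inflammatory stimulus, no knockout and no reporter, and they give no mouse or culture of origin for the 3 libraries of a group. The p-values therefore reflect the spread between these libraries alone, which could be technical. Expression is given as CPM, the count of a gene scaled to the library size after TMM normalisation, and changes as log2 fold changes with their standard error (SE) and the adjusted p from edgeR (quasi-likelihood test, adjusted by Benjamini-Hochberg over all tested genes), with 0.05 as the threshold.

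Between 22705978 and 49885085 reads per library fell in genes. Hypoxia-lactate 3 stood apart: 10 or more counts were reached by 11437 genes in it and by 13198 to 14767 genes in each of the other 11 libraries, and its median Spearman correlation with the others was 0.906, against 0.966 to 0.987. Fold changes of the members are therefore given with and without hypoxia-lactate 3. Normoxia-NaCl 1 came next, with 13198 genes at 10 or more counts and a median correlation of 0.966. It had the largest shares of mitochondrially encoded reads (4.75%) and of reads not uniquely aligned (18.4%). It also held the lowest Nfkbiz, Tnfaip3 and Tnf values of the 12 libraries. Some calls are therefore also given with both libraries left out. The oxygen labels were checked on 12 known targets of the hypoxia-inducible factor HIF, and all 12 rose in hypoxia, with a median log2 fold change of 2.23 against -0.01 over all genes. The 10 macrophage markers summed to 33735 to 49521 CPM per library, with Lyz2 the most abundant. Of the other cell types, the neutrophil list of 12 genes summed to 59.7 to 215.9 CPM in hypoxia-lactate, 66.4 to 76.9 in hypoxia-NaCl, 73.0 to 77.5 in normoxia-lactate and 75.1 to 109.2 in normoxia-NaCl, and its highest sum was in hypoxia-lactate 3. In that library Csf3r made up 180.4 CPM of the sum and S100a8 34.9 CPM, while S100a9, Ltf, Ngp and Camp were at 0. S100a9, a calcium-binding protein gene abundant in neutrophils, was instead highest in library 2 of every group, at 10.8, 12.7, 10.5 and 17.985 CPM. The fibroblast list of 8 genes, mainly Col1a1 and Col1a2, summed to 51.9 to 104.1 CPM in hypoxia-lactate, 29.0 to 108.4 in hypoxia-NaCl, 39.5 to 86.6 in normoxia-lactate and 39.4 to 100.9 in normoxia-NaCl. For hypoxia-lactate against normoxia-NaCl its 5 tested genes were all positive, with a median log2 fold change of 0.60 and 0 called by edgeR, DESeq2 and limma-voom (0 at an unadjusted p under 0.05), and its part in the members' values was not tested. The lymphocyte list reached at most 3.24 CPM and the mast cell list at most 4.21 CPM, its highest being in hypoxia-lactate 3, with Ms4a1, Ncr1, Tpsb2, Fcer1a and Ms4a2 at 0 in every library.

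The stretch just upstream of a gene's start is where many NF-kappaB target genes carry binding sites, and RefSeq (build GRCm38.p6) gave the 250 bases before the start for 7 of the 10 members, matched by symbol, in 10 windows (3 for Nfkb2, 2 for Tnfaip3 and 1 for each of the others). The first window is printed 5′ to 3′ on the gene's own strand for 4 members: Tnfaip3, the member that passed the test for hypoxia, Ptgs2, whose window holds neither of the capitalised motifs, and Nfkbia and Nfkb2, which hold one of them. Capitals mark GGGNNTTNCC, a form of the kappaB motif, and ACGTG, the core of the HIF response element, each searched on both strands.
Tnfaip3, chr10:19015411-19015660, minus strand: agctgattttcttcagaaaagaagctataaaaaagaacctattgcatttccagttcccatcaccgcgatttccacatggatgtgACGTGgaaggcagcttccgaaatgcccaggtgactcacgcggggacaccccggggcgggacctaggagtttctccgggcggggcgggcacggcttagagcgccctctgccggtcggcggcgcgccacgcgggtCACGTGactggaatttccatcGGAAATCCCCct
Nfkbia, chr12:55492648-55492897, minus strand: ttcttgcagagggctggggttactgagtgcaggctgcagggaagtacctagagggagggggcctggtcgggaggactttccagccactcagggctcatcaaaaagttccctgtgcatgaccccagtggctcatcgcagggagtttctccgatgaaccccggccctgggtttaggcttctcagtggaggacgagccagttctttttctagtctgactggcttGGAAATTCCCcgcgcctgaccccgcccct
Nfkb2, chr19:46304487-46304736, plus strand: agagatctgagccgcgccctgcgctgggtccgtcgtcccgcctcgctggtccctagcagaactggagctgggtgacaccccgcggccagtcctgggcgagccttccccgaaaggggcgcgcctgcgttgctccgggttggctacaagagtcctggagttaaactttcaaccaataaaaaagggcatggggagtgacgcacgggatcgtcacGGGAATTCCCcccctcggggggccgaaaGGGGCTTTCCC
Ptgs2, chr1:150099781-150100030, plus strand: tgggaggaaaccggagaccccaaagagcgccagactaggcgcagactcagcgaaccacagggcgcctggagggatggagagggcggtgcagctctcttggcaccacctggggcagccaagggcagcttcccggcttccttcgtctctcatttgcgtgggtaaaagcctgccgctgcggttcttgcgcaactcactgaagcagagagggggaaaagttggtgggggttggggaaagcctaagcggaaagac

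The kappaB form GGGNNTTNCC was present in Rel, Nfkb2, Nfkbia and Tnfaip3, in at least 1 window of 4 of the 7 members, and of 4.72% of the 27018 genes with RefSeq windows of this length. In the printed window of Tnfaip3 it lay 12 to 3 bases before the start, in that of Nfkbia 29 to 20 bases before it, and in that of Nfkb2 at 39 to 30 bases and again in an overlapping pair next to the start. The core ACGTG was present in Rel and Tnfaip3 and in 18.5% of genes with a window. In the printed window of Tnfaip3 it occurred at 166 to 162 bases before the start and again at 33 to 28 bases, where the letters CACGTG read the same on both strands and so match on each. The other window of Tnfaip3 had ACGTG at 94 to 90 bases before its start and no GGGNNTTNCC, and of the other windows of Nfkb2 one had GGGNNTTNCC at 225 to 216 bases and one had none. The looser form GGGNNNNNCC, which includes the stricter one, matched in all 10 windows of the 7 members and in 48.7% of genes with a window. These matches describe letters only, and no binding was measured. Relb, Nfkb1 and Nfkbiz were not among the windows matched.

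Levels of the 10 genes differed widely when divided by the length of their exons. Nfkbia, which encodes the classical inhibitor IkappaB alpha, had the highest mean level, 68.2 CPM per kilobase over the 12 libraries, followed by Rela at 53.5. Then came Nfkb2 at 13.2, Nfkb1 at 11.7, Tnf at 11.2, Relb at 8.22, Nfkbiz at 6.27, Tnfaip3 at 3.03, Rel at 2.00 and Ptgs2 at 0.866 CPM per kilobase. Across the 12 libraries the ranges of neighbours in this order overlapped for every pair except Rela and Nfkb2. Exon lengths came from a GENCODE annotation of another build than the counts. The exons of Nfkb2 overlap those of Psd on the other strand over 299 bases there, and since the strand setting of the counting is not given in the sources used here, some reads of one could be counted for the other or for neither.

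**Figure D1:**
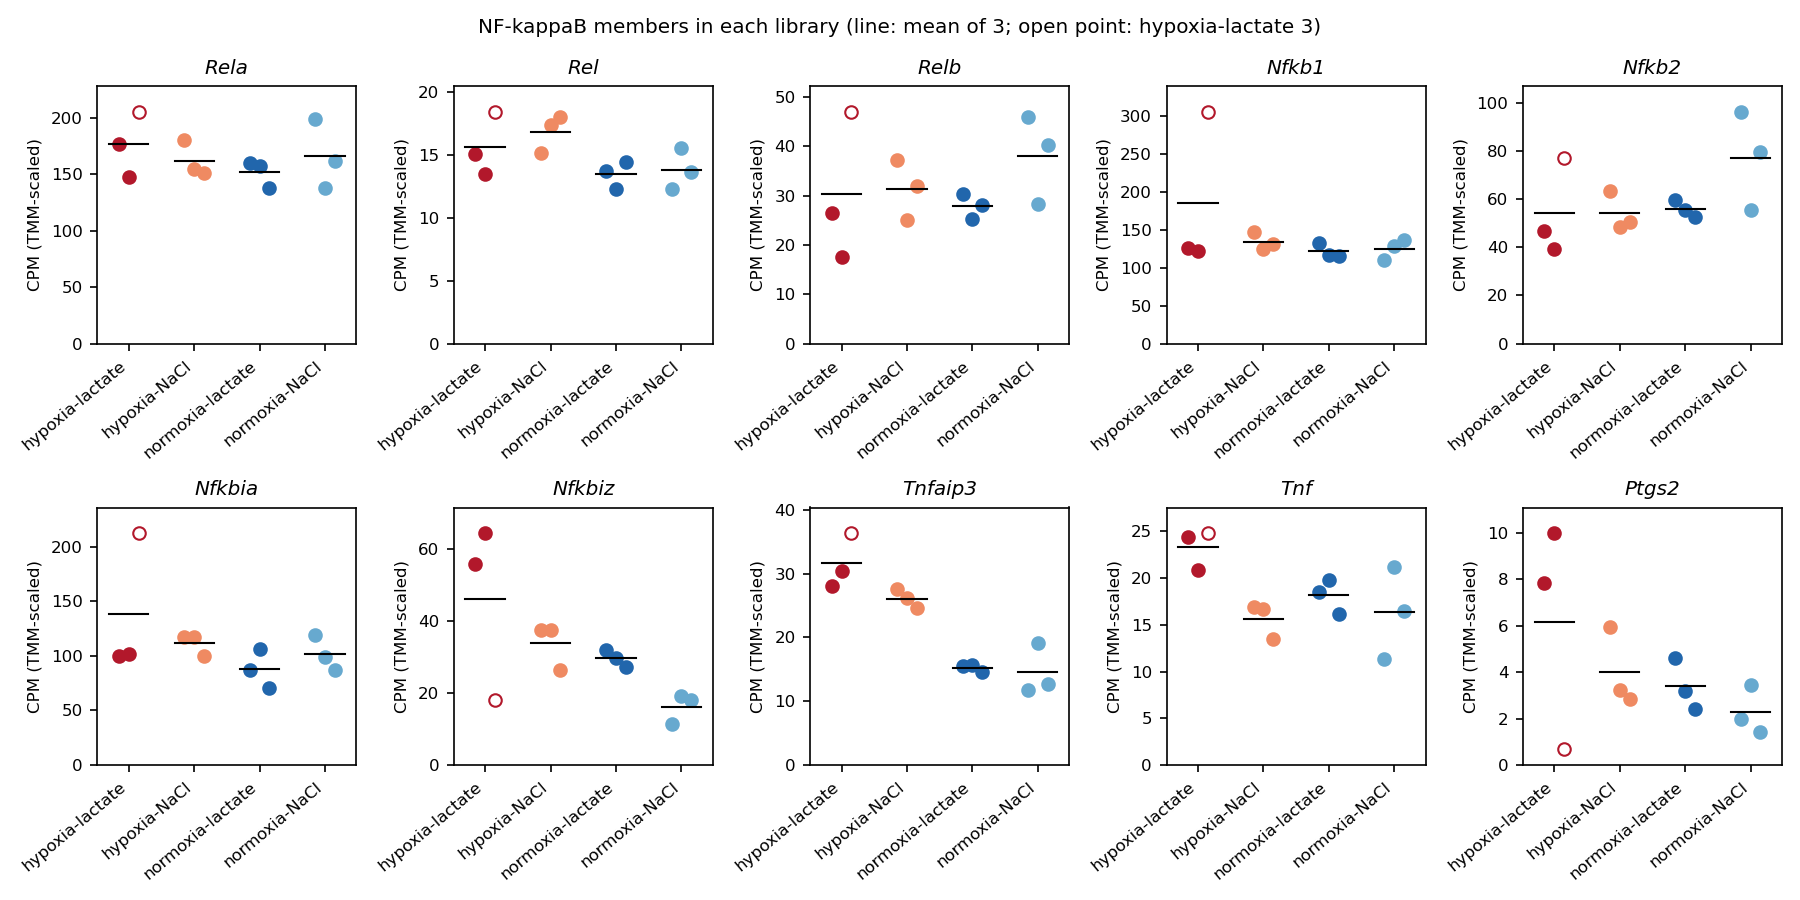
Expression of each of the 10 members in CPM (vertical axes start at 0) in the 3 libraries of each group, with a line at the group mean and an open point for hypoxia-lactate 3. Tnfaip3 shows the hypoxic libraries of both media, 24.6 to 36.3 CPM, all above the normoxic ones, 11.7 to 19.2 CPM.

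Among the members that regulate the pathway, Tnfaip3 showed the clearest difference by oxygen with all 12 libraries. It encodes A20, an enzyme that edits ubiquitin chains on signalling proteins and shuts off NF-kappaB activation. Tnfaip3 measured 28.1, 30.4 and 36.3 CPM in hypoxia-lactate and 27.5, 26.1 and 24.6 CPM in hypoxia-NaCl, against 15.4, 15.7 and 14.6 CPM in normoxia-lactate and 11.7, 19.2 and 12.7 CPM in normoxia-NaCl. All 6 hypoxic libraries lay above all 6 normoxic ones, a separation in this direction that 2.24% of tested genes showed. Averaged over both media, the log2 fold change was 0.94 ± 0.17 (adjusted p = 0.0145), and without hypoxia-lactate 3 it was 0.88 ± 0.13 (adjusted p = 0.00203). It was the only one of the 10 members past the threshold in this comparison with all 12 libraries, where 1.12% of all tested genes were called higher and 0.26% lower. The call is close to the threshold: the adjusted p was 0.0511 to 0.0657 when hypoxia-NaCl 1 or 2, normoxia-lactate 1, 2 or 3, or normoxia-NaCl 3 was left out, with log2 fold changes that stayed between 0.88 and 1.07 over all 12 leave-one-out fits.

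Within a single medium the Tnfaip3 difference had the same sign and about the same size. In NaCl medium it was 0.84 ± 0.24 (adjusted p = 0.368), and in lactate medium 1.05 ± 0.24 (adjusted p = 0.126). The libraries did not overlap in either medium, as for 12.8% of tested genes in NaCl and 8.23% in lactate in this direction. Without hypoxia-lactate 3 the hypoxia effect passed in both media, at 0.83 ± 0.18 (adjusted p = 0.0378) in NaCl and 0.93 ± 0.20 (adjusted p = 0.0473) in lactate, where 1.23% and 0.65% of all tested genes were called higher. The call in NaCl was lost when normoxia-NaCl 1 was left out as well (0.70, adjusted p = 0.0821). The difference between these effects, the interaction, was 0.21 ± 0.33 (adjusted p = 0.921), and 0.10 ± 0.27 (adjusted p = 0.998) without hypoxia-lactate 3. Lactate itself, averaged over both oxygen levels, gave Tnfaip3 a log2 fold change of 0.17 ± 0.17 (adjusted p = 0.825), and 0.12 ± 0.13 (adjusted p = 0.734) without that library. Within hypoxia all 3 libraries with lactate exceeded all 3 with NaCl, as for 6.69% of tested genes. That lactate effect was 0.28 ± 0.23 (adjusted p = 0.641), and 0.17 ± 0.20 (adjusted p = 0.844) without hypoxia-lactate 3.

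Nfkbiz encodes IkappaB zeta, a nuclear member of the inhibitor family that binds the Nfkb1 product on DNA and is needed for the induction of a second set of inflammatory genes. It measured 55.9, 64.5 and 18.04 CPM in hypoxia-lactate, 37.6, 37.6 and 26.3 CPM in hypoxia-NaCl, and 31.9, 29.7 and 27.4 CPM in normoxia-lactate, against 11.4, 19.3 and 17.95 CPM in normoxia-NaCl. Apart from hypoxia-lactate 3, which sat at the level of normoxia-NaCl, every library with lactate, hypoxia or both exceeded every normoxia-NaCl library. For hypoxia-NaCl against normoxia-NaCl, 12.8% of tested genes showed such a separation. With all libraries hypoxia-lactate and normoxia-NaCl overlapped for Nfkbiz, whereas 9.39% of tested genes were separated in this direction. The share with hypoxia-lactate 3 set aside was not computed. With hypoxia-lactate 3 included the hypoxia effect averaged over media was 0.85 ± 0.27 (adjusted p = 0.166) and the lactate effect averaged over oxygen 0.66 ± 0.27 (adjusted p = 0.675), neither past the threshold. Without that library Nfkbiz was higher in hypoxia, by 1.03 ± 0.15 (adjusted p = 0.00132), and higher with lactate, by 0.85 ± 0.15 (adjusted p = 0.0402). Of all 15088 genes tested without it, 3.91% were called higher in hypoxia and 0.172% higher with lactate, and Nfkbiz was the only member called for lactate.

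For Nfkbiz the effects of oxygen and lactate could be followed one at a time. Lactate in normoxia gave 0.87 ± 0.38 (adjusted p = 1.00), and 0.87 ± 0.20 (adjusted p = 0.433) without hypoxia-lactate 3, with all 3 normoxia-lactate libraries above all 3 normoxia-NaCl ones, as for 5.6% of tested genes. Lactate in hypoxia gave 0.45 ± 0.38 (adjusted p = 0.642), and 0.83 ± 0.22 (adjusted p = 0.279) without hypoxia-lactate 3. Hypoxia without lactate gave 1.06 ± 0.38 (adjusted p = 0.596), and 1.05 ± 0.20 (adjusted p = 0.0212) without that library, and hypoxia with lactate 0.64 ± 0.38 (adjusted p = 0.443), and 1.02 ± 0.22 (adjusted p = 0.0506) without it. The combination, hypoxia-lactate against normoxia-NaCl, gave 1.51 ± 0.39 (adjusted p = 0.0727), and 1.89 ± 0.22 (adjusted p = 0.000482) without hypoxia-lactate 3. The interaction was -0.42 ± 0.54 (adjusted p = 0.908) with all libraries and -0.04 ± 0.30 (adjusted p = 1.00) without hypoxia-lactate 3.

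Nfkbia, induced by NF-kappaB to end its own activation, measured 99.999, 101.5 and 212.4 CPM in hypoxia-lactate and 117.1, 117.8 and 99.8 CPM in hypoxia-NaCl, against 87.1, 106.2 and 71.1 CPM in normoxia-lactate and 119.1, 99.3 and 87.0 CPM in normoxia-NaCl. Apart from hypoxia-lactate 3, the 4 groups overlapped. The hypoxia effect averaged over media was 0.39 ± 0.20 (adjusted p = 0.374), and 0.16 ± 0.12 (adjusted p = 0.445) without hypoxia-lactate 3.

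Of the output genes, Tnf, the cytokine that both results from and triggers NF-kappaB activation, was not past the threshold by oxygen or by lactate. It measured 24.4, 20.8 and 24.8 CPM in hypoxia-lactate and 16.9, 16.7 and 13.4 CPM in hypoxia-NaCl, against 18.5, 19.8 and 16.2 CPM in normoxia-lactate and 11.4, 21.1 and 16.5 CPM in normoxia-NaCl. The hypoxia effect averaged over media was 0.15 ± 0.18 (adjusted p = 0.753) and the lactate effect averaged over oxygen 0.36 ± 0.18 (adjusted p = 0.704), or 0.12 ± 0.15 (adjusted p = 0.662) and 0.34 ± 0.15 (adjusted p = 0.37) without hypoxia-lactate 3. In hypoxia all 3 libraries with lactate exceeded all 3 with NaCl, as for 6.69% of tested genes, with a log2 fold change of 0.58 ± 0.26 (unadjusted p = 0.0449, adjusted p = 0.435 in edgeR's fit), and 0.54 ± 0.23 (adjusted p = 0.496) without hypoxia-lactate 3. With lactate, all 3 hypoxic libraries exceeded all 3 normoxic ones, as for 8.23% of tested genes. That hypoxia effect was 0.36 ± 0.26 (adjusted p = 0.521), and 0.31 ± 0.23 (adjusted p = 0.572) without hypoxia-lactate 3. The combination gave 0.51 ± 0.26 (adjusted p = 0.278) and the interaction 0.42 ± 0.36 (adjusted p = 0.902), or 0.47 ± 0.23 (adjusted p = 0.218) and 0.38 ± 0.31 (adjusted p = 0.998) without that library.

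Ptgs2 encodes the inducible cyclooxygenase that starts prostaglandin synthesis, and was the least abundant member. It measured 7.84, 9.98 and 0.71 CPM in hypoxia-lactate and 5.93, 3.23 and 2.83 CPM in hypoxia-NaCl, against 4.60, 3.20 and 2.42 CPM in normoxia-lactate and 1.96, 3.45 and 1.41 CPM in normoxia-NaCl. The value of hypoxia-lactate 3 rests on 12 reads, and those of the other 11 libraries on 43 to 291. That library was the lowest of all 12 and the other 2 of its group were the highest. Averaged over media the hypoxia effect was 0.84 ± 0.50 (adjusted p = 0.462), and 1.10 ± 0.29 (adjusted p = 0.0373) without hypoxia-lactate 3, a call lost when normoxia-NaCl 1 was left out as well (1.05, adjusted p = 0.0515). Lactate averaged over oxygen gave 0.61 ± 0.50 (adjusted p = 0.793), and 0.87 ± 0.29 (adjusted p = 0.226) without that library. The combination gave 1.45 ± 0.72 (adjusted p = 0.274), and 1.97 ± 0.43 (adjusted p = 0.0177) without it.

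The 5 subunits showed no call by oxygen, by lactate or by both in the fit over all 12 libraries. Rela, the main activating subunit, measured 176.7, 147.8 and 205.6 CPM in hypoxia-lactate and 180.9, 154.6 and 151.2 CPM in hypoxia-NaCl, against 160.5, 157.1 and 138.3 CPM in normoxia-lactate and 199.1, 137.9 and 161.8 CPM in normoxia-NaCl. These ranges overlapped between all groups, with a hypoxia effect of 0.09 ± 0.13 (adjusted p = 0.806), or 0.03 ± 0.12 (adjusted p = 0.92) without hypoxia-lactate 3. Rel, whose product c-Rel is a second activating subunit, ran from 13.5 to 18.4 CPM in hypoxia-lactate and 15.1 to 17.98 CPM in hypoxia-NaCl, against 12.3 to 14.4 CPM in normoxia-lactate and 12.2 to 15.5 CPM in normoxia-NaCl, with a hypoxia effect of 0.25 ± 0.17 (adjusted p = 0.507), or 0.18 ± 0.12 (adjusted p = 0.374) without that library. Rela and Rel were also the members with the least spread over all 12 libraries, a coefficient of variation of 13.4% and 13.9%, against 68.7% for Ptgs2 and 49.99% for Nfkbiz. Without hypoxia-lactate 3 the least spread was that of Nfkb1, at 8.24%, against 37.2% with it, followed by Rela at 11.6% and Rel at 12.7%.

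Nfkb1, whose product is cut to a DNA-binding subunit, measured 126.3, 122.3 and 305.5 CPM in hypoxia-lactate and 147.2, 125.2 and 130.7 CPM in hypoxia-NaCl, against 132.6, 116.3 and 115.8 CPM in normoxia-lactate and 110.1, 128.1 and 136.0 CPM in normoxia-NaCl. Only hypoxia-lactate 3 lay outside the range of the rest. Its hypoxia effect was 0.35 ± 0.21 (adjusted p = 0.455), and 0.06 ± 0.10 (adjusted p = 0.721) without that library.

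Nfkb2 and Relb encode the subunits of the alternative pathway, in which the Nfkb2 product is processed and pairs with RelB. Nfkb2 measured 46.6, 39.3 and 77.0 CPM in hypoxia-lactate, 63.4, 48.6 and 50.3 CPM in hypoxia-NaCl, and 59.7, 55.6 and 52.7 CPM in normoxia-lactate, against 96.2, 55.3 and 79.3 CPM in normoxia-NaCl. Relb measured 26.4, 17.6 and 47.0 CPM in hypoxia-lactate, 37.3, 25.1 and 31.9 CPM in hypoxia-NaCl, and 30.3, 25.2 and 28.2 CPM in normoxia-lactate, against 45.9, 28.2 and 40.2 CPM in normoxia-NaCl. For both genes the mean was highest in normoxia-NaCl, and the groups overlapped.

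The fold changes of the pair were negative in the 3 comparisons given here, and also for hypoxia without lactate and lactate in normoxia. With all 12 libraries Relb was positive for hypoxia with lactate, Nfkb2 for lactate in hypoxia, and both for the interaction. None of these positive values was past the threshold, and each turned sign in some alternatives. For Nfkb2 the hypoxia effect averaged over media was -0.28 ± 0.19 (adjusted p = 0.526), and -0.45 ± 0.14 (adjusted p = 0.0678) without hypoxia-lactate 3. The combination gave Nfkb2 -0.50 ± 0.27 (adjusted p = 0.305), and without that library it fell by 0.84 ± 0.21 on the log2 scale (adjusted p = 0.0344), where 3.26% of all tested genes were called lower. This call was lost when normoxia-NaCl 1, the library with the most Nfkb2, was left out as well (-0.65, adjusted p = 0.0601). The hypoxia effect of Relb was -0.08 ± 0.23 (adjusted p = 0.913), or -0.31 ± 0.16 (adjusted p = 0.241) without hypoxia-lactate 3, and its combined effect -0.33 ± 0.32 (adjusted p = 0.602), or -0.79 ± 0.24 (adjusted p = 0.0654) without hypoxia-lactate 3. The sign of Relb's hypoxia effect turned to 0.051 when hypoxia-lactate 2 was left out. The lactate effect averaged over oxygen was -0.23 ± 0.19 for Nfkb2 (adjusted p = 0.793) and -0.25 ± 0.23 for Relb (adjusted p = 0.812), or -0.39 ± 0.14 (adjusted p = 0.271) and -0.47 ± 0.16 (adjusted p = 0.236) without hypoxia-lactate 3.

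**Figure D2:**
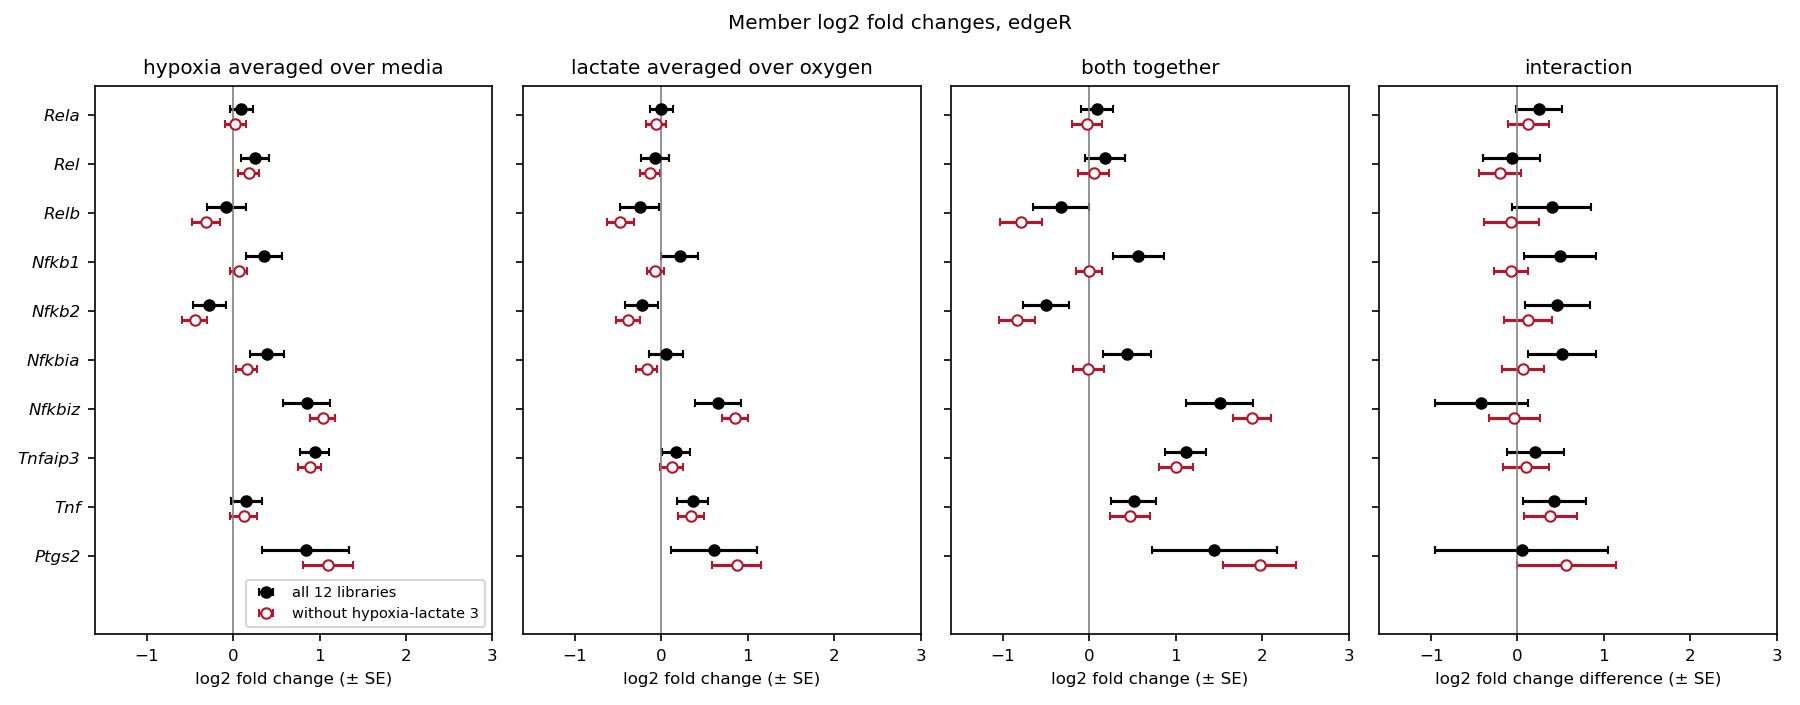
Log2 fold changes of the 10 members (horizontal axis, bars ± SE of edgeR's fit) for hypoxia, lactate, both together and their interaction, with all 12 libraries (filled) and without hypoxia-lactate 3 (open). Tnfaip3 lies near 0.9 for hypoxia in both fits, whereas Nfkbiz and Ptgs2 lie further from 0 and have shorter bars without that library.

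Counted over the 10 members, hypoxia averaged over media called 1 with all 12 libraries and 3 without hypoxia-lactate 3 (Nfkbiz, Tnfaip3 and Ptgs2, all higher), where 1.38% and 7.59% of all tested genes were called in either direction, the second share being 3.91% higher and 3.68% lower. The median log2 fold change of the 10 was 0.30, against -0.01 over all tested genes, and 8 of 10 were positive. Without hypoxia-lactate 3 the median was 0.14, again with 8 of 10 positive. Lactate averaged over oxygen called 0 members in edgeR, DESeq2 and limma-voom (1 at an unadjusted p under 0.05, beside 6.99% of tested genes) and 0.0342% of all tested genes. The combination of both called 1 member, Tnfaip3, at 1.12 ± 0.24 (adjusted p = 0.0381), beside 1.61% of all tested genes, and 1.00 ± 0.20 (adjusted p = 0.0109) without hypoxia-lactate 3, where it called 4 members (Tnfaip3, Nfkbiz and Ptgs2 higher, Nfkb2 lower), beside 6.86%. The Tnfaip3 call in the combination did not hold with upper-quartile scaling, with no filter on low counts or with only the 2 groups compared in the fit, nor in 8 of 12 leave-one-out fits, where its adjusted p ran from 0.0109 to 0.139. Hypoxia without lactate called 0 members in edgeR and limma-voom (2 at an unadjusted p under 0.05, beside 6.49% of tested genes) and 1, Tnfaip3, in DESeq2, beside 0.281% of all tested genes in edgeR. Hypoxia with lactate also called 0 in edgeR and limma-voom (2 at an unadjusted p under 0.05, beside 14.6% of tested genes) and 1, again Tnfaip3, in DESeq2, beside 0.226% of all tested genes. Lactate in normoxia and lactate in hypoxia called 0 members with each of the 3 tools (1 each at an unadjusted p under 0.05, beside 1.55% and 11.4% of tested genes) and 0 genes in edgeR, and the interaction called 0 members with each tool (0 at an unadjusted p under 0.05, beside 3.4% of tested genes) and 0 genes in edgeR. DESeq2 called 5.95% of all genes for hypoxia averaged, 0.714% for lactate averaged, 1.1% for hypoxia without lactate, 3.03% for hypoxia with lactate, 0.0786% for lactate in normoxia, 0.776% for lactate in hypoxia and 0.00693% for the interaction.

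**Figure D3:**
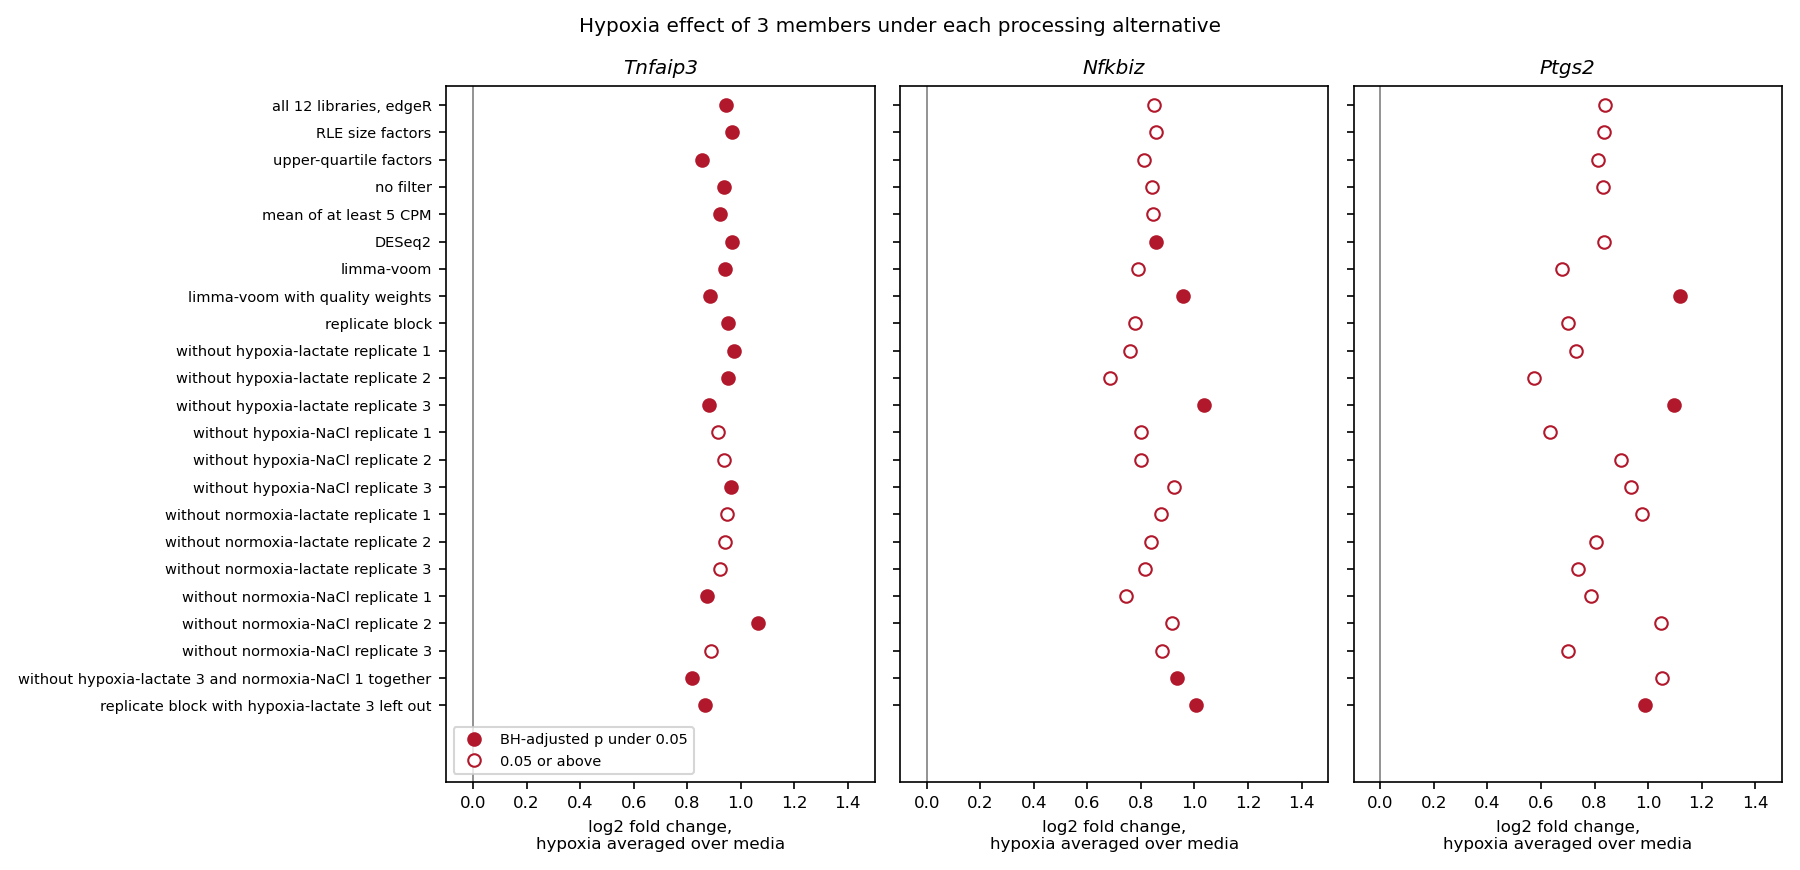
Log2 fold change for hypoxia averaged over media of Tnfaip3, Nfkbiz and Ptgs2 (horizontal axis) with all 12 libraries and under each processing alternative (rows), filled where the adjusted p is under 0.05. All values are positive, and the fits that call Nfkbiz are DESeq2, limma-voom with quality weights and those without hypoxia-lactate 3.

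The library that stood apart did so in opposite directions among the members. Against the mean of the other 2 hypoxia-lactate libraries, hypoxia-lactate 3 had 2.46 times as much Nfkb1, 2.14 times as much Relb, 2.11 times as much Nfkbia and 1.79 times as much Nfkb2. It was 3.34-fold lower in Nfkbiz and 12.5-fold lower in Ptgs2. For Rela, Rel, Tnfaip3 and Tnf it was the highest of all 12 libraries but within 1.10 to 1.29 times its group. Its TMM factor was the lowest, 0.742, against 0.864 in normoxia-NaCl 1 and 1.01 to 1.10 in the others. This raised every CPM value of hypoxia-lactate 3, including those behind these ranks. The scaling also enters the separations of Tnfaip3 and Tnf within hypoxia and within lactate medium. How these ranks and separations stand without the scaling was not tested. The same library had the lowest share of mitochondrially encoded reads, 0.486%, against 2.04% to 4.75% in the others. The part of these features and of the neutrophil and mast cell marker sums in the member values of this library was not tested.

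**Figure D4:**
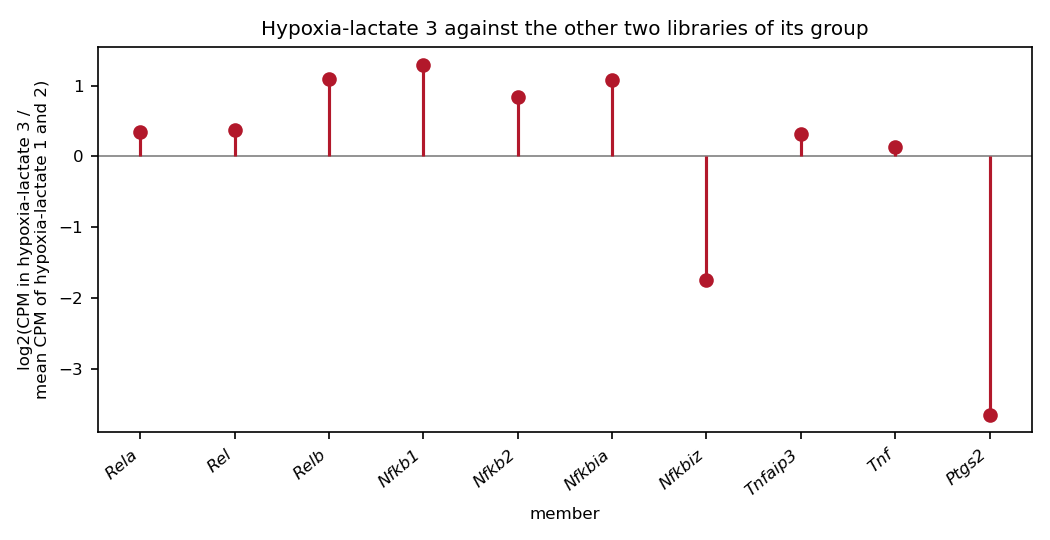
Log2 ratio of each member's CPM in hypoxia-lactate 3 to its mean in hypoxia-lactate 1 and 2 (vertical axis). Nfkb1, Relb, Nfkbia and Nfkb2 lie well above 0, and Nfkbiz and Ptgs2 well below it.

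Around the 10 members, 7 further lists of pathway genes held 126 genes, 117 of them tested. In hypoxia averaged over media 4 of the 117 rose and 1 fell, and without hypoxia-lactate 3 the counts were 9 and 3, to be read against the same shares of all genes as above. An unadjusted p under 0.05 was reached by 15.2% of all genes in this comparison, and limma-voom called 1.57%. The list of other inhibitors and IkappaB family genes also held regulators outside that family, such as Nkiras2. It had 0 of 9 called in edgeR, DESeq2 and limma-voom (0 at an unadjusted p under 0.05). Its median log2 fold change was -0.21, with 8 of 9 negative. Nkiras2, an IkappaB-binding small GTPase, had the smallest adjusted p of that list, at -0.57 ± 0.34 (adjusted p = 0.466). It was at 6.76 CPM in hypoxia-lactate 3 and at 48.1 to 60.5 CPM in the other hypoxic libraries, against 55.5 to 73.6 CPM in the normoxic ones, and without that library it gave -0.33 ± 0.094 (adjusted p = 0.0519). The list of IkappaB kinases, upstream kinases and their partners had 0 of 17 called with the 3 tools (3 higher at an unadjusted p under 0.05) and a median of 0.26, with 15 of 17 positive, or a median of 0.15 without hypoxia-lactate 3. Among them Tbk1 gave 0.47 ± 0.16 (adjusted p = 0.205) and Ikbkg, the regulatory subunit of the IkappaB kinase complex, 0.37 ± 0.15 (adjusted p = 0.271), or 0.34 (adjusted p = 0.126) and 0.23 (adjusted p = 0.2) without hypoxia-lactate 3.

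Among 22 adaptors and ubiquitin enzymes, 1 rose, Tnip3, with a list median of 0.25, or 0.15 without hypoxia-lactate 3. Tnip3 belongs to the family of proteins that bind A20. It measured 86.6, 84.5 and 86.1 CPM in hypoxia-lactate and 71.7, 59.8 and 65.6 CPM in hypoxia-NaCl, against 29.8, 38.4 and 37.4 CPM in normoxia-lactate and 39.3, 34.9 and 27.8 CPM in normoxia-NaCl. The hypoxic and normoxic libraries did not overlap, and the log2 fold change was 1.12 ± 0.13 (adjusted p = 0.000972), past the threshold in all 22 alternative fits. In lactate medium alone the hypoxia effect was 1.28 ± 0.19 (adjusted p = 0.0123), a call lost without any 1 of the 3 normoxia-lactate libraries (adjusted p = 0.0701 to 0.131) or with only the 2 groups compared in the fit (adjusted p = 0.262). In the combination it was 1.33 ± 0.19 (adjusted p = 0.00411), lost with only the 2 groups in the fit (adjusted p = 0.176). Traf1, an adaptor of TNF receptors, measured 50.4, 49.7 and 128.3 CPM in hypoxia-lactate and 50.8, 44.9 and 34.95 CPM in hypoxia-NaCl, against 36.9, 31.5 and 28.7 CPM in normoxia-lactate and 28.5, 27.9 and 25.4 CPM in normoxia-NaCl. Its hypoxia effect was 0.95 ± 0.23 (adjusted p = 0.0691), or 0.65 (adjusted p = 0.00575) without hypoxia-lactate 3. In the combination it rose by 1.48 ± 0.33 (adjusted p = 0.0468), or 0.88 (adjusted p = 0.0106) without hypoxia-lactate 3. Of the 12 leave-one-out fits only the 3 that dropped a hypoxia-lactate library kept that call (adjusted p up to 0.162). Over all 23 alternatives the call held in 10, with an adjusted p up to 0.457.

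Other NF-kappaB target genes were split: of 31 tested, Il1b, Ier3 and Nos2 rose in hypoxia, Bcl2l1 fell, and the median was 0.06. Il1b, the cytokine interleukin-1 beta, measured 5.44, 7.13 and 4.09 CPM in hypoxia-lactate and 3.73, 1.80 and 3.18 CPM in hypoxia-NaCl, against 1.52, 1.40 and 2.16 CPM in normoxia-lactate and 0.82, 0.82 and 0.63 CPM in normoxia-NaCl. Its hypoxia effect was 1.83 ± 0.31 (adjusted p = 0.0108) and its combined effect 2.88 ± 0.46 (adjusted p = 0.00887). The first of these calls was lost without hypoxia-NaCl 1, normoxia-lactate 1, normoxia-lactate 2 or normoxia-NaCl 3 (adjusted p up to 0.0611). Among leave-one-out fits the second was lost without normoxia-NaCl 3 (adjusted p = 0.0583). Over all 22 alternatives that gave a value, the second held in 20, with an adjusted p up to 0.252. Il1bos, an antisense gene, overlaps the exons of Il1b over 25 of their 1907 bases, so only reads in that stretch may not be told apart. Larger overlaps with counted genes on the other strand included those of Ikbkg with G6pdx (418 bases), Adam17 with Iah1 (311) and Nkiras2 with Dnajc7 (287).

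Ier3, an early response gene, averaged 48.3 CPM in hypoxia and 18.8 CPM in normoxia, with a log2 fold change of 1.37 ± 0.31 (adjusted p = 0.0493). Nos2, the inducible nitric oxide synthase, averaged 1.94 CPM in hypoxia and 0.111 CPM in normoxia, with 3.98 ± 0.82 (adjusted p = 0.0348). Nos2 was at 6.16 CPM in hypoxia-lactate 1, at 0.56 to 1.80 CPM in the other hypoxic libraries, and at 0 to 0.21 CPM in the normoxic ones. Bcl2l1, which encodes an inhibitor of cell death, averaged 24.9 CPM in hypoxia and 47.4 CPM in normoxia, with -0.93 ± 0.19 (adjusted p = 0.0353). These calls held in 3 of 12 leave-one-out fits each. For Ier3 they were those without hypoxia-lactate 3, normoxia-lactate 2 or normoxia-NaCl 2 (adjusted p over the 12 fits 0.0186 to 0.166). For Nos2 they were those without hypoxia-lactate 2, hypoxia-lactate 3 or normoxia-NaCl 2 (0.00259 to 0.125), and for Bcl2l1 those without hypoxia-lactate 1, hypoxia-lactate 3 or normoxia-NaCl 2 (0.00877 to 0.113). In the combination Saa3, an acute phase protein, rose as well, by 1.97 ± 0.43 (adjusted p = 0.0431). It measured 70.0, 38.0 and 134.7 CPM in hypoxia-lactate against 29.3, 17.2 and 15.7 CPM in normoxia-NaCl. Only the 3 leave-one-out fits without a hypoxia-lactate library kept the Saa3 call (adjusted p up to 0.139). Over all 23 alternatives this call held in 12, with an adjusted p up to 0.371.

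The lists next to Tnf and Ptgs2 had no call for hypoxia in edgeR with all 12 libraries. Of 10 TNF receptors and shedding genes, 0 were called by edgeR and limma-voom and 1 by DESeq2 (1 higher and 1 lower at an unadjusted p under 0.05), with a median of -0.02, or -0.15 without hypoxia-lactate 3. Adam17, the protease that releases TNF from the cell surface, gave 0.77 ± 0.22 (adjusted p = 0.12), or 0.48 (adjusted p = 0.023) without hypoxia-lactate 3. Of 14 genes for mRNA decay and other brakes of the TNF response, 0 were called by edgeR and limma-voom and 3 by DESeq2 (4 higher and 2 lower at an unadjusted p under 0.05), with a median of 0.15. Dusp2, a phosphatase that turns off MAP kinases, gave -1.68 ± 0.50 (adjusted p = 0.144), or -1.43 (adjusted p = 0.00951) without hypoxia-lactate 3, and Zfp36l1, which promotes the decay of AU-rich mRNAs, 0.54 ± 0.16 (adjusted p = 0.145). Of 14 tested genes of prostaglandin synthesis and response, 0 were called with the 3 tools (1 higher at an unadjusted p under 0.05), with a median of 0.15, or 0.028 without hypoxia-lactate 3. Hpgd, which breaks prostaglandins down, gave 0.69 ± 0.21 (adjusted p = 0.16).

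**Figure D5:**
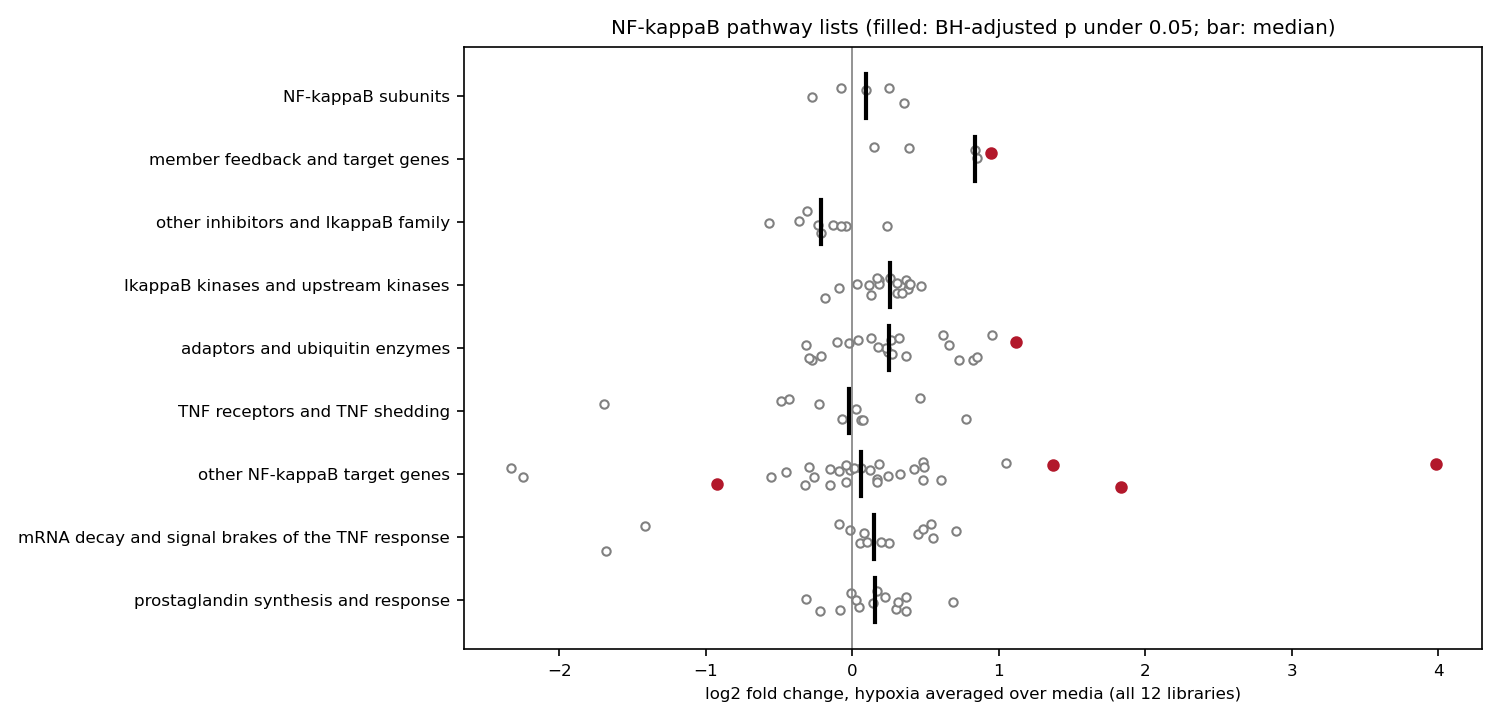
Log2 fold change for hypoxia averaged over media of every tested gene of the subunit list, the feedback and target list and 7 further pathway lists (rows), with a bar at each median and filled points for genes past the threshold. The filled points are Tnfaip3, Tnip3, Il1b, Ier3, Nos2 and Bcl2l1, and the medians run from -0.21 to 0.84.

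Genes whose pattern over the libraries was most like a member's were ranked among 9212 genes by the correlation of log2(CPM + 1), as a description in which all genes share libraries, depth and scaling. Nfkbiz was most like Il1r1, the interleukin-1 receptor, with r = 0.98 over 12 libraries and 0.98 without hypoxia-lactate 3, where it ranked 2, followed by Kmt2e and Kcnj2. Tnfaip3 was most like Samsn1 (0.96, and 0.96 at rank 2 without that library), followed by Tut7 and Vegfa, which ranked 17 and 15 without it. Nfkbia was most like Ptgs1 (0.96), which had 0.87 at rank 6 without hypoxia-lactate 3, followed by Paqr7 and Cyth2. With all 12 libraries the closest gene to Tnf was Abhd2 (0.89), which had 0.86 at rank 24 without that library, followed by Nmd3 and Ppp1r12b, at ranks 26 and 21. Among the members, Relb and Nfkb2 followed each other with r = 0.92 both with and without hypoxia-lactate 3, and Nfkbiz and Ptgs2 with 0.85 and, without that library, 0.87.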

How the data were processed

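The deposited table holds the authors' raw counts, 1 row per Ensembl gene and 1 column for each of the 12 libraries. Per the labels' protocols, poly(A) RNA went through an Ion Total RNA-Seq kit preparation and Ion Proton sequencing. Per the submitters' processing notes, BWA, HTSeq and the mm9 build were used, with no versions. Counters that name no gene held 0% to 22.0% of reads each (reads outside genes 13.7% to 22.0%, not uniquely aligned 8.34% to 18.4%) and were left out.

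Comparisons came from 1 edgeR 4.0.16 fit over 12 libraries in R 4.3.3 (quasi-likelihood test, TMM scaling, filterByExpr, 14616 genes, or 15088 without hypoxia-lactate 3), checked on simulated data. The simulation had no library standing apart, the same relative spread for all genes, and hypoxia effects larger than any member's effect averaged over media. Its spread was also set below that of the 12 libraries, whose common coefficient of variation in edgeR was 38.2%. The simulation therefore does not show how the fit performs on effects of the members' size or at the spread of these libraries. Averaged effects weigh both media, or both oxygen levels, equally. SE was taken from the F statistic, as the size of the log2 fold change divided by its square root. Alternatives used DESeq2 1.42.0 and limma 3.58.1.

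Members and lists were chosen with earlier results of these data known. All members are named. Other genes named passed the threshold in a comparison, or had among the 2 smallest adjusted p-values of their list in the averaged comparisons (at least 1 CPM on average), and some are left out for length. Likeness was ranked over genes of at least 5 CPM. Symbols were matched by identifier to GENCODE (GRCm38), for 32897 of 37620 identifiers.

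Library numbers were taken to pair the libraries of hypoxia-NaCl and normoxia-NaCl: their deviations from the group mean correlated, for each of the 3 numbers, at 0.142 to 0.397, above the limit of 0.1. The main fit had no term for library number, so the values given for hypoxia without lactate in the Results are unpaired. Such a term was added only in the alternatives called replicate block. Hypoxia-NaCl and normoxia-lactate correlated at 0.191 to 0.479. No comparison sets these groups directly against each other, but they lie on opposite sides of both averaged comparisons. Hypoxia-lactate missed this limit for at least 1 number against each of the other groups, and so did normoxia-lactate against normoxia-NaCl. Against hypoxia-NaCl and normoxia-NaCl, library 2 of hypoxia-lactate reached 0.309 and 0.366, and libraries 1 and 3 stayed below 0.1. The mean of hypoxia-lactate includes hypoxia-lactate 3, which stood apart and enters the deviations of libraries 1 and 2. The check therefore cannot decide whether the hypoxia-lactate libraries share the numbering.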

Additional observations from a re-analysis of the deposited data

How the results depend on the processing

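Of 80 member values (10 members, 8 comparisons), 33 changed sign in at least 1 alternative, and 0 of these were past the threshold with all libraries or in the alternative that turned them. Among the printed values the sign turned for Relb in hypoxia averaged (0.051 without hypoxia-lactate 2, and -0.31 to 0.051 over the libraries left out), for the Tnfaip3 interaction (-0.029 without normoxia-NaCl 2, and -0.029 to 0.34 over the libraries left out) and for the Nfkbiz interaction (0.16 without hypoxia-lactate 3 and normoxia-NaCl 1); the cause was not tested. Tnfaip3 in hypoxia averaged ran from 0.82 to 1.07 over 22 alternatives (adjusted p 1.24e-06 to 0.0657).

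Members called, of 10, are given here with the share of all genes called in the same alternative. For hypoxia averaged (1 in the report) they were 2 with DESeq2 (5.95%), 3 with limma-voom quality weights (15.1%), 2 without hypoxia-lactate 3 and normoxia-NaCl 1 (8.94%), 4 with the replicate block without hypoxia-lactate 3 (14.7%), and 0 to 3 with 1 library left out (0.546% to 7.59%). For lactate averaged (0) they were 1 with quality weights (1.18%), 1 without both libraries (0.361%), 2 with the block without hypoxia-lactate 3 (1.7%), and 0 to 1 with 1 library left out (0% to 0.305%). For hypoxia without lactate (0) they were 1 with DESeq2 (1.1%), 2 with quality weights (3.59%), 1 without both (1.23%), 2 with the block without hypoxia-lactate 3 (5.08%), and 0 to 2 with 1 library left out (0.0472% to 1.79%). For hypoxia with lactate (0) they were 1 (3.03%), 2 (5.04%), 2 (2.49%) and 2 (1.73%) in the same alternatives, and 0 to 1 with 1 library left out (0.0202% to 0.862%). For both together (1) they were 0 with upper-quartile scaling (1.35%), 2 with DESeq2 (10%), 3 with quality weights (7.38%), 0 with only the groups compared (0.0442%), 3 without both (5.98%), 5 with the block without hypoxia-lactate 3 (14%), and 0 to 4 with 1 library left out (0.452% to 6.86%). Each upper end with 1 library left out came from dropping hypoxia-lactate 3.

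Genes called over the whole table moved more: from 81 to 2211 for hypoxia averaged (201 in the report), 0 to 256 for lactate averaged (5), 7 to 767 for hypoxia without lactate (41), 3 to 737 for hypoxia with lactate (33), 0 to 43 for lactate in normoxia (0), 0 to 112 for lactate in hypoxia (0), 6 to 2116 for both together (235) and 0 to 2 for the interaction (0). The replicate block with all libraries changed no member call: hypoxia averaged kept 1, Tnfaip3 at 0.95 (adjusted p = 0.0219), and hypoxia without lactate, the paired comparison, kept 0. Upper-quartile scaling shifted the median of all genes by -0.110 to -0.128 for hypoxia with lactate, lactate in hypoxia, both together and the interaction, and leaving out hypoxia-lactate 3 shifted it by 0.128 to 0.139 in the same comparisons. The filter at a mean of 5 CPM left out Ptgs2, which gave no value there.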

Other observations

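Relb was lowest in library 2 of its group in all 4 groups, and Nfkb2 in 3 of 4. Itgax, a dendritic cell and macrophage surface integrin that made up most of the dendritic marker sum, was lowest in library 2 and highest in library 3 of all 4 groups, at 57.4 to 391.6 CPM. The 8 dendritic markers, Xcr1 among them at 0 in every library, summed to 59.9 to 277.8 CPM in hypoxia-lactate, 74.3 to 255.5 in hypoxia-NaCl, 94.8 to 359.1 in normoxia-lactate and 110.2 to 393.3 in normoxia-NaCl. Ptgs2 was lowest in library 3 of all 4 groups. These values were picked out after they were seen, and what library numbers stand for was not tested.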
